A study of Arabidopsis thaliana with 29 samples.

Results

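Mature hybrid embryos of Arabidopsis thaliana were compared between the 2 directions of a cross between accessions Col-0 and Tsu-1. The 4 libraries were chosen by stage and parentage: 2 from embryos with a Col-0 mother and a Tsu-1 father, and 2 from embryos with a Tsu-1 mother and a Col-0 father. They are 4 of the 29 libraries of the series, which follow the same crosses through 7 embryo stages and add unfertilized ovules. Every embryo of either direction carries 1 nuclear genome from each accession, so the nuclear genotype is shared and the mother, with her organelles and her seed coat, differs. Embryos were dissected by hand and washed away from maternal tissue, and messenger RNA was amplified before sequencing, per the labels' protocols. Pooling of embryos and plants is not given in the sources used here. Library totals were 26.8 M and 9.76 M reads with a Col-0 mother and 7.96 M and 11.2 M reads with a Tsu-1 mother. Each of these groups has 2 libraries, labelled as biological replicates. The p-values of the main edgeR fit measure spread between libraries of a group, estimated over all 29 libraries and not these 4 alone. The authors' maternal shares are given by cross and not by library. How their p-values treat replicates is not given in the sources used here.

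A maturing Arabidopsis embryo first fills its cells with storage proteins and oil, and then prepares to dry. The 2S albumins and 12S cruciferins are packed into vacuoles, and triacylglycerol is held in oil bodies coated by oleosins. Late embryogenesis abundant (LEA) proteins, small heat shock proteins and raffinose family sugars accumulate late and are known for protecting dry cells. The B3 factors ABI3 and FUS3 and bZIP factors such as ABI5 regulate these genes, while the green embryo's photosynthesis and fatty acid synthesis are shut down before dormancy.

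Of 25062 genes tested, 1575 rose and 2172 fell in embryos of a Tsu-1 mother, relative to a Col-0 mother, at an adjusted p under 0.05 in edgeR's quasi-likelihood test with Benjamini-Hochberg adjustment. That is 15% of the genes tested, 6.28% higher and 8.67% lower, and these shares are the background for each list below. All differences are log2 fold changes of the Tsu-1 mother minus the Col-0 mother. Levels are CPM, the usual depth-scaled read count, adjusted by trimmed mean of M values (TMM) factors. These factors take most genes as unchanged, so a level is relative to the bulk of genes in its library. Rises and falls of 1 gene are meant in that sense here, and amounts per embryo were not measured. The 2 libraries with a Tsu-1 mother correlated at 0.963 across genes and those with a Col-0 mother at 0.927, while pairs from different mothers correlated between 0.876 and 0.907. Genes are not independent replicates, and these correlations describe the libraries only. The number of calls fell to 2398 without Col-0 mother replicate 1, to 2568 without Col-0 mother replicate 2, to 1471 without Tsu-1 mother replicate 1 and to 1183 without Tsu-1 mother replicate 2. In each of these fits every call shared with the full fit had the same direction.

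Genes of 28 lists were then followed, and the plot of changes by list shows how they fell on either side of 0. With a Tsu-1 mother, heat shock proteins, LEA proteins and protein phosphatases of abscisic acid signalling were called in the higher direction alone. Photosystem and Rubisco genes, plastid fatty acid synthesis genes and oil-modifying enzymes had members called lower and none higher, and of 18 maturation regulators 9 were called lower and 1 higher. In the 21 lists written by hand, with 343 members before the filter, 33 members were called higher and 90 lower. Over all genes tested the shares were 6.28% and 8.67%. Of the 90, 35 were of the photosystem list, whose mean log2 CPM was 0.58 and 4.75 in Col-0 mother replicates 1 and 2. The higher count was larger without scaling factors, as given below.

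**Figure D1:**
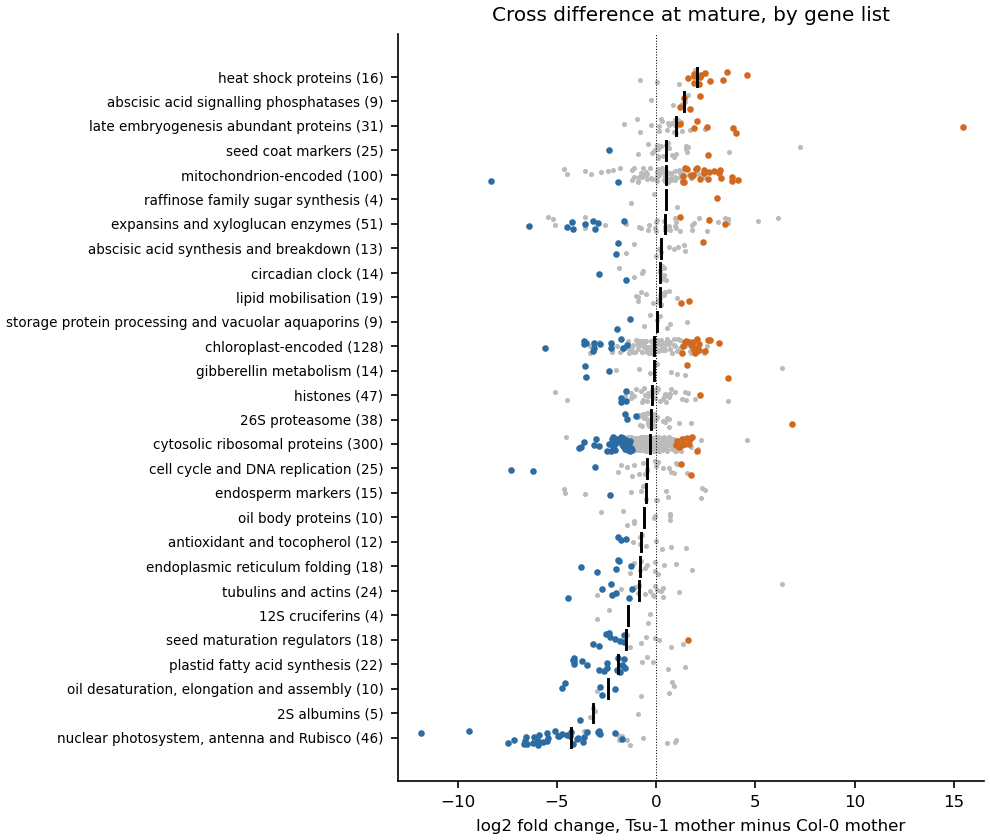
Log2 fold change of each tested member of 28 gene lists at mature (horizontal axis, Tsu-1 mother minus Col-0 mother), with the number of members tested in brackets. Orange points were called higher and blue points lower at an adjusted p under 0.05 in edgeR, grey points were not called, and black bars are list medians. Heat shock proteins lie at the top with a median of 2.07 and photosystem, antenna and Rubisco genes at the bottom with a median of -4.31. The LEA point at 15.5 is M17, which had no reads with a Col-0 mother, so its fitted value is not a measured size.

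The most abundant transcripts differed in their share of reads before any scaling. The 10 genes with the largest mean share over the 4 libraries took 59.6% and 58.2% of all reads with a Col-0 mother, against 23.0% and 23.9% with a Tsu-1 mother. The 100 largest took 77.8% and 76.2% against 53.2% and 55.3%. The 2 groups did not overlap, and with 2 libraries a group the exact two-sided permutation test could not go below the p of 0.333 that it gave. Reads outside these 100 genes came to 5.93 M and 2.33 M with a Col-0 mother and to 3.73 M and 4.99 M with a Tsu-1 mother. Summed over all genes, 47.4% of the absolute difference in read share between the crosses lay in the 10 genes and 25.6% in 1 gene, the 2S albumin SESA3.

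SESA3 alone took 26.2% and 30.8% of reads with a Col-0 mother and 5.22% and 4.75% with a Tsu-1 mother. It also stood first of all genes when reads were divided by exon length. The 10 genes were SESA3, the cruciferins CRU3, CRU2 and CRA1, the albumins SESA5 and SESA4, the oleosins OLEO1, OLEO2 and OLEO4, and the dehydrin AT5G66400. Fewer cells of a type and less RNA per cell cannot be told apart in bulk embryos, here and in what follows.

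**Figure D2:**
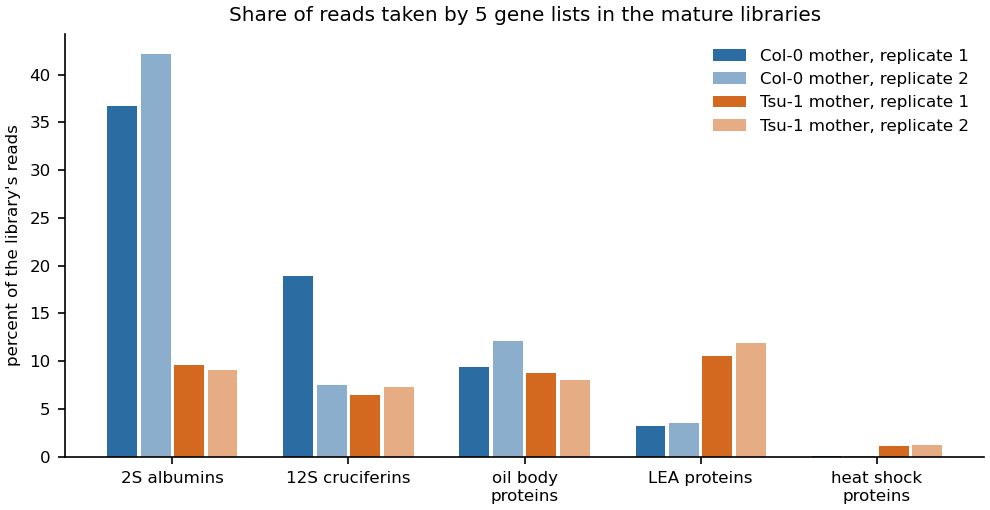
Percent of each mature library's reads taken by 5 gene lists, with 1 bar per library (blue, Col-0 mother; orange, Tsu-1 mother; dark, replicate 1; light, replicate 2). The 2S albumins took 36.7% and 42.2% of reads with a Col-0 mother and 9.63% and 9.03% with a Tsu-1 mother, while LEA proteins took 3.17% and 3.51% against 10.6% and 11.9%.

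These shares set how reads of all other genes compare. TMM factors were 0.294 and 0.385 for the libraries with a Col-0 mother and 0.628 and 0.566 for those with a Tsu-1 mother. With library totals alone and no such factors, 6115 genes (24.4%) were called higher and 678 (2.71%) lower, so 90.0% of calls were higher with a Tsu-1 mother against 42.0% with TMM. The median over all genes then stood at 0.80, against 0 with TMM, which takes most genes as unchanged and so sets it near 0. Only 2253 genes were called in both fits. With upper quartile factors the split was 2145 higher and 1882 lower, or 53.3% higher, and the median over all genes was 0.11.

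Leaving the abundant genes out, with TMM kept, changed much less than leaving out the scaling. TMM itself trims genes with extreme levels or differences, and leaving the abundant genes out under library totals was not tested. Without the 10 largest genes in the table, 1490 genes were called higher and 2489 lower, and without the 100 largest 1494 and 2431. Of the 3747 calls, 3656 and 3645 were called again in those fits, each in the same direction. Calls among the genes left out could not recur. Median-of-ratios factors gave 1911 higher (7.63%) and 2120 lower (8.46%). DESeq2 gave 1927 higher (8.7% of 22146 genes) and 2267 lower (10.2%). The plot of calls by setting places the fit with library totals apart from the others.

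**Figure D3:**
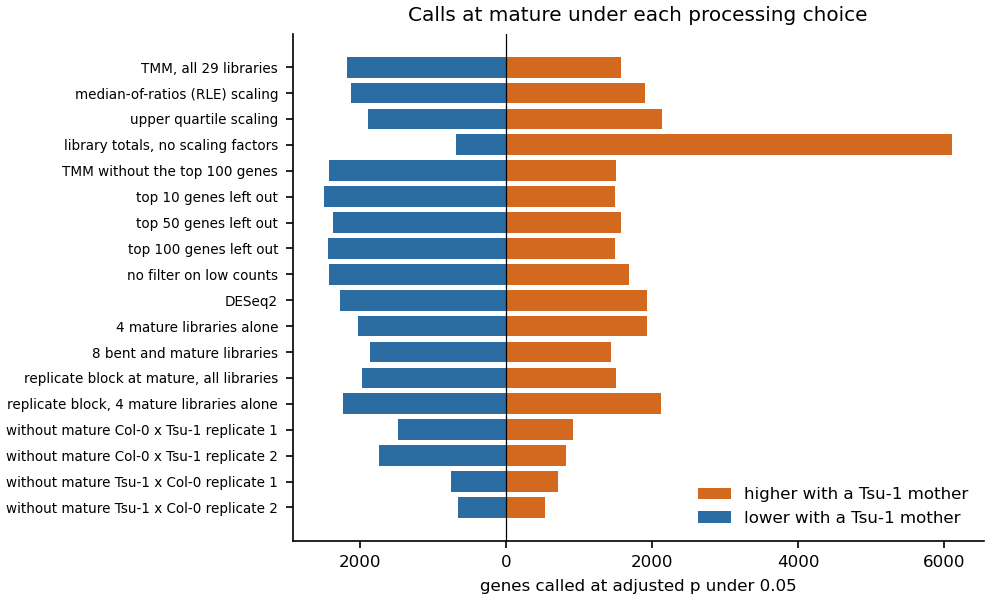
Genes called at an adjusted p under 0.05 under each processing choice, with calls higher with a Tsu-1 mother to the right in orange and calls lower to the left in blue. Each row is edgeR except the one named DESeq2. With library totals 6115 genes were called higher and 678 lower, and without Tsu-1 mother replicate 2 only 532 and 651.

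The 2S albumins were lower with a Tsu-1 mother by several fold in their levels, but only SESA1 passed the test. SESA3 stood at 891700 and 799800 CPM with a Col-0 mother and at 83150 and 84030 CPM with a Tsu-1 mother. SESA4 stood at 151900 and 113800 CPM against 14980 and 14200 CPM. The groups of both genes were far apart and did not overlap. SESA2, at 95370 and 47900 CPM against 8537 and 8303 CPM, was separated in the same way. SESA1 stood at 47350 and 20300 CPM against 2480 and 2286 CPM, and its difference of -3.83 ± 1.14 (SE) had an adjusted p of 0.0237 in edgeR. SESA5, at 63020 and 113200 CPM against 44350 and 50950 CPM, differed least. All 5 members had groups that did not overlap, as did 58.7% of all genes tested, and their median was -3.19 against 0 over all genes.

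The SESA3 difference of -3.34 ± 1.45 had an adjusted p of 0.121, and those of SESA4 and SESA2 had 0.0802 and 0.121, in the edgeR fit of all 29 libraries. Fitted on the 4 mature libraries alone, where 12.9% of 15672 genes were called lower, SESA1, SESA2, SESA3 and SESA4 all passed, with edgeR adjusted p between 0.00483 and 0.00627. That fit differs in both the libraries and the genes tested, and which of these moved the calls was not tested. The full fit also takes in stages whose replicates were far apart. Mean log2 CPM of 2S albumins was -2 and 7.661 in heart Tsu-1 mother replicates 1 and 2, and 1.808 and 4.656 at globular. In the other groups with replicates these means lay closer together. In those heart libraries cruciferins stood at -2.092 and 7.032 and oil body genes at 1.591 and 6.501. The part of this spread in the full fit's p-values was not tested. The SESA1 call in the full fit was lost without Col-0 mother replicate 1 (adjusted p 0.104), Tsu-1 mother replicate 1 (0.151) or Tsu-1 mother replicate 2 (0.169). SESA1 to SESA4 lie side by side and are similar in sequence, and how reads shared by such copies were counted is not given in the sources used here, so the split between them is uncertain.

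The region before SESA3 is shown because this gene carries the largest single difference in reads. Capitals mark the RY motif CATGCA, known in seed promoters as a binding site of B3 factors, the G-box CACGTG, and ACGTG, the core of abscisic acid response elements, each on either strand. Every G-box also holds ACGTG on both strands. All promoters here are the 250 bases before the gene start, from the RefSeq annotation of assembly TAIR10.1.
SESA3 (chr4:13611546-13611795, plus strand): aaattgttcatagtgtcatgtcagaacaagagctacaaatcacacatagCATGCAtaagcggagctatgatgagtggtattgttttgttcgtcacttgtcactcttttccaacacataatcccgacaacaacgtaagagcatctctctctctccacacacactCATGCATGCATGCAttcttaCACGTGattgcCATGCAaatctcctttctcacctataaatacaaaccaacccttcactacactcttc
This window holds 7 matches to RY, counted on both strands with overlaps, and 1 G-box. The promoters of all 5 2S albumins held both RY and a G-box. Over 23073 tested genes with a promoter window, 8.23% held RY, 7.04% a G-box and 23.1% ACGTG. The 10 oil body genes all held RY as well, and 3 of the 4 cruciferins did. These matches describe the letters of the windows only.

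None of the 4 cruciferin genes was called in the fit of all 29 libraries. Of these genes 1 had mature groups that did not overlap, against 58.7% of all genes. CRU3 stood at 360700 and 132900 CPM with a Col-0 mother and 28830 and 33370 CPM with a Tsu-1 mother, a difference of -2.99 ± 1.25 with an edgeR adjusted p of 0.106. CRA1 stood at 150200 and 17460 CPM against 14120 and 18380 CPM. Its first Col-0 mother library was far above the other 3, which lay close together. CRU2, at 108800 and 37200 CPM against 46770 and 62750 CPM, and AT1G03890, at 25700 and 7530 CPM against 13020 and 14310 CPM, overlapped between the crosses. The cruciferins as a list took 18.96% and 7.51% of reads with a Col-0 mother and 6.44% and 7.28% with a Tsu-1 mother, so only Col-0 mother replicate 1 stood apart. Without that library the list's median moved from -1.39 to 0.23.

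Of 10 oil body genes none was called in the fit of all 29 libraries. Of these genes 8 had mature groups that did not overlap, against 58.7% of all genes. The oleosin OLEO1 stood at 156600 and 165500 CPM with a Col-0 mother and 23080 and 23410 CPM with a Tsu-1 mother, a difference of -2.79 ± 1.01 with an edgeR adjusted p of 0.0606. On the 4 mature libraries alone its adjusted p was 0.00577. OLEO2 (65950 and 77810 against 31820 and 35590 CPM), OLEO3 (1136 and 1153 against 379.8 and 352.3 CPM) and the oleosin AT3G01570 (15100 and 12460 against 5188 and 4847 CPM) were also lower in both Tsu-1 mother libraries. OLEO4 at 49270 and 31160 against 37670 and 38600 CPM, and the caleosin AT4G26740 at 8967 and 8115 against 7639 and 8469 CPM, overlapped. The steroleosin copies AT5G50600 and AT5G50700 had identical values, 9208 and 7429 against 13910 and 12650 CPM, and cannot be told apart. The median of the list was -0.59 with TMM and 0.24 with library totals.

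**Figure D4:**
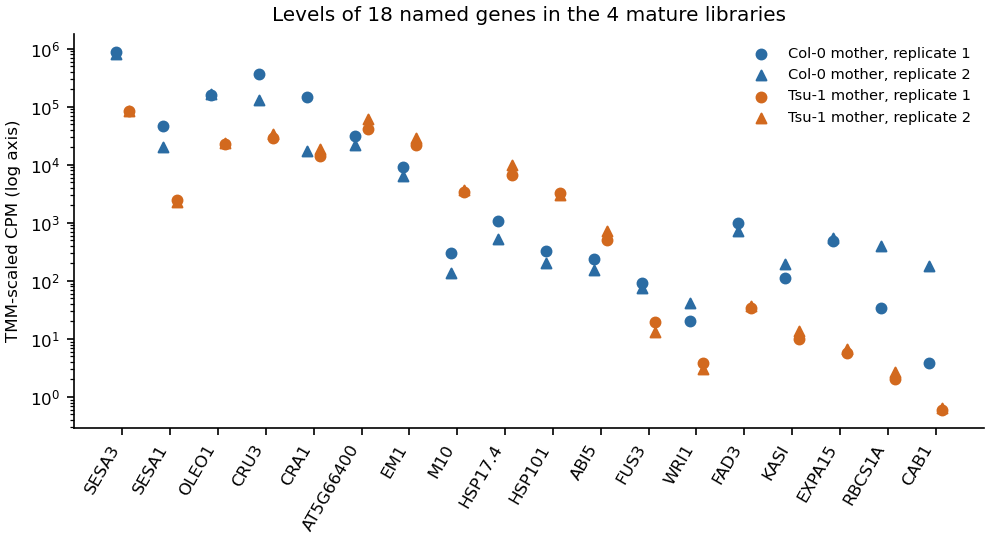
TMM-scaled CPM of 18 named genes in the 4 mature libraries on a log axis (blue, Col-0 mother; orange, Tsu-1 mother; circles, replicate 1; triangles, replicate 2). SESA3 stood at 891700 and 799800 CPM with a Col-0 mother and 83150 and 84030 CPM with a Tsu-1 mother, M10 and HSP101 were higher in both Tsu-1 mother libraries, and RBCS1A and CAB1 differed widely between the 2 Col-0 mother libraries.

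Heat shock proteins were the list with the largest share of higher calls: 12 of 16 members were called higher with a Tsu-1 mother and none lower, with a median of 2.07. The small heat shock protein AT1G53540 stood at 16.40 and 15.71 CPM with a Col-0 mother and 378.2 and 390.7 CPM with a Tsu-1 mother. Its difference was 4.58 ± 0.50, with an edgeR adjusted p of 2.52e-06, the largest among the higher genes whose mean log2 CPM over the 4 mature libraries reached 5. HSP101, the disaggregase that rescues aggregated proteins, stood at 322.0 and 205.0 CPM against 3232 and 3001 CPM. Every library with a Tsu-1 mother was above every library with a Col-0 mother for both genes. In either direction, 58.7% of all genes tested had groups that did not overlap.

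HSP17.4, a cytosolic small heat shock protein, stood at 1093 and 526.8 CPM with a Col-0 mother and 6755 and 10000.0 CPM with a Tsu-1 mother. The differences of HSP101 and HSP17.4 were 3.56 ± 0.57 and 3.37 ± 0.68, with edgeR adjusted p of 0.000168 and 0.00159, and both calls held without any 1 mature library. HSP70, a chaperone that folds newly made proteins, rose from 1043 and 693.4 CPM to 3039 and 3516 CPM. HSP17.6A rose from 774.7 and 394.0 CPM to 1610 and 1896 CPM. The edgeR calls of these genes (adjusted p 0.0121 and 0.0152) were lost without Col-0 mother replicate 2 (0.0924 and 0.137) and without Tsu-1 mother replicate 2 (0.0746 and 0.0938). Between 8 and 10 members were called when any 1 mature library was left out, 8 of them without Tsu-1 mother replicate 2, and 12 or 13 under other scalings. HSFA9, the heat shock factor of seeds, overlapped between the crosses at 77.5 and 84.7 CPM against 78.9 and 100.9 CPM.

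The HSP17.4 promoter is shown as that of an abundant member of the list, with the heat shock element core GAANNTTC, searched on both strands and added after the data had been seen, also in capitals.
HSP17.4 (chr3:16984868-16985117, minus strand): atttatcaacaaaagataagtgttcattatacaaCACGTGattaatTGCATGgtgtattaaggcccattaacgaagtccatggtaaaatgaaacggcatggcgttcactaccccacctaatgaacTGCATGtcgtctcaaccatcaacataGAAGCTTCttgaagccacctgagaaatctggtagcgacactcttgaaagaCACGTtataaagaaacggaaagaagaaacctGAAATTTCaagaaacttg
It holds 2 heat shock element cores, 2 RY matches and 1 G-box. In the list, 4 of 16 promoters held the heat shock element core, against 9.37% of all promoters.

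Among LEA proteins, 7 of 31 members were called higher and none lower, and 27 of 31 had a difference above 0, with a median of 1.03. M17, named here after its values had been seen, had 0 reads in both Col-0 mother libraries and 1409 and 2626 reads with a Tsu-1 mother. That is 282.1 and 416.0 CPM, at least 1383-fold higher when 3 reads over both Col-0 mother libraries are taken as their limit, and its edgeR adjusted p was 7.55e-08. It was the only gene tested with no reads in 1 cross and more than 10 CPM in both libraries of the other. Its nearest LEA neighbour, M10, stood at 296.3 and 138.2 CPM against 3459 and 3609 CPM, a difference of 4.02 ± 0.57 with an edgeR adjusted p of 5.53e-05. Another LEA gene, AT2G18340, stood at 182.9 and 100.6 CPM against 2118 and 2086 CPM, a difference of 3.89 ± 0.53 with an edgeR adjusted p of 3.45e-05. The calls of M17, M10 and AT2G18340 held without any 1 mature library.

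The most abundant LEA genes differed less and were not called. The dehydrin AT5G66400 stood at 31300 and 21530 CPM with a Col-0 mother and 41290 and 60900 CPM with a Tsu-1 mother. EM1 stood at 9042 and 6484 CPM against 21910 and 28930 CPM, a difference of 1.71 ± 0.79 with an edgeR adjusted p of 0.147. AT3G15670 stood at 13410 and 17550 CPM against 31450 and 32550 CPM. GEA6, an Em protein like EM1, stood at 7063 and 3962 CPM against 11990 and 14660 CPM. All 4 had every Tsu-1 mother library above every Col-0 mother library. Groups did not overlap, in either direction, for 26 of the 31 LEA genes and for 58.7% of all genes tested. The number of LEA members called was between 4 and 7 with 1 library left out, 4 without Tsu-1 mother replicate 2, and up to 19 under other scalings.

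The windows before M17, M10 and EM1 are shown because M17 and M10 lie next to each other and differ most, while EM1 is abundant and differs less.
M17 (chr2:17206202-17206451, plus strand): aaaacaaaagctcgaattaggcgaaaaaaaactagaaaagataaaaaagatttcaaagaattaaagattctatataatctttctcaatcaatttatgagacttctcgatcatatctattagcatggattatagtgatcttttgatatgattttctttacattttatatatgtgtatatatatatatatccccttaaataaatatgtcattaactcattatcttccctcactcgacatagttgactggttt
M10 (chr2:17209447-17209696, plus strand): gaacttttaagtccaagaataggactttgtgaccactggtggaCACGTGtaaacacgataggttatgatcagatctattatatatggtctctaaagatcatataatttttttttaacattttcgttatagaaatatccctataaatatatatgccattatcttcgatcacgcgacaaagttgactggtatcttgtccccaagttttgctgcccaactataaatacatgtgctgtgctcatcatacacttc
EM1 (chr3:19214472-19214721, plus strand): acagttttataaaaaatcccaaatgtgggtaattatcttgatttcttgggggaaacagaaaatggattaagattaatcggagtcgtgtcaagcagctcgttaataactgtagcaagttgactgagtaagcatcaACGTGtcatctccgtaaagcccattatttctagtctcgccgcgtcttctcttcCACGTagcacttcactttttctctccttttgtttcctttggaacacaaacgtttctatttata
The M17 window holds none of the 4 motifs, the M10 window 1 G-box and the EM1 window 2 matches to ACGTG. Among LEA promoters, 17 of 31 held a G-box and 25 of 31 ACGTG. Among all genes called higher 25.2% held ACGTG and among those called lower 24.0%, near the 23.1% of all promoters.

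Phosphatases that restrain abscisic acid signalling were also higher. Of 9 such genes of the PP2C class, 4 were called higher and none lower, with a median of 1.41. AHG1 stood at 317.9 and 344.4 CPM with a Col-0 mother and 877.4 and 884.3 CPM with a Tsu-1 mother, and HAI2 at 232.1 and 133.6 against 430.2 and 751.6 CPM. Their edgeR adjusted p were 0.0182 and 0.0160. The AHG1 call was lost without Col-0 mother replicate 1 (0.0851) or 2 (0.0590) and without Tsu-1 mother replicate 1 (0.0750) or 2 (0.0821), and that of HAI2 without Col-0 mother replicate 2 (0.131) or Tsu-1 mother replicate 2 (0.181). PP2CA and HAI1 were not called, with values of 202.7 and 288.8 against 726.5 and 611.5 CPM and of 154.9 and 87.0 against 300.9 and 432.0 CPM. With 1 library left out, 2 of the 9 were called without Col-0 mother replicate 1, 1 without Col-0 mother replicate 2, 3 without Tsu-1 mother replicate 1 and 0 without Tsu-1 mother replicate 2. A further PP2C gene outside the list, AT2G34740, was among the largest differences, at 37.39 and 17.57 CPM against 506.1 and 456.3 CPM (4.12 ± 0.55, edgeR adjusted p 4.1e-05).

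GolS1, a galactinol synthase that starts raffinose synthesis, rose from 292.5 and 117.7 CPM to 1823 and 1586 CPM with a Tsu-1 mother. Its difference of 3.05 ± 0.66 had an edgeR adjusted p of 0.00259 and held without any 1 library. GolS2, at 215.3 and 112.6 against 306.3 and 381.2 CPM, and the stachyose synthase STS, at 198.0 and 173.0 against 77.1 and 79.2 CPM, were not called. AT5G40390 lay between 1.00 and 1.65 CPM in the 4 libraries, and GolS3 was not tested. One member of 4 tested was therefore called.

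The transcription factors of seed maturation went mostly the other way, and 9 of 18 were called lower and 1 higher with a Tsu-1 mother. The one called higher was ABI5, a bZIP factor of abscisic acid response, at 241.2 and 154.4 CPM with a Col-0 mother and 499.5 and 716.2 CPM with a Tsu-1 mother (1.62 ± 0.40, edgeR adjusted p 0.00725). That call was lost without Col-0 mother replicate 2 (0.0874) or Tsu-1 mother replicate 2 (0.0886). The B3 factor FUS3 fell from 92.6 and 74.8 CPM to 19.4 and 13.3 CPM, and ABI3 fell from 316.4 and 400.6 CPM to 112.3 and 119.5 CPM. Their edgeR adjusted p were 0.00356 and 0.0231. The FUS3 call was lost without Tsu-1 mother replicate 2 (0.0801), and the ABI3 call without Col-0 mother replicate 2 (0.0914), Tsu-1 mother replicate 1 (0.149) or Tsu-1 mother replicate 2 (0.136).

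WRI1, the AP2 factor that drives fatty acid synthesis genes, stood at 20.4 and 41.5 CPM with a Col-0 mother and 3.80 and 3.01 CPM with a Tsu-1 mother. The bZIP factor EEL stood at 386.6 and 361.5 CPM against 58.1 and 91.9 CPM. The differences of -3.18 ± 0.47 and -2.32 ± 0.44 had edgeR adjusted p of 8.84e-05 and 0.000836, and both calls held without any 1 library. The other members called lower were ABI4 (14.6 and 21.3 against 3.003 and 1.901 CPM), AREB3 (113.4 and 142.7 against 40.8 and 32.2 CPM), DPBF2 (152.3 and 343.1 against 51.1 and 67.0 CPM), NF-YB6 and BZIP25. Without 1 mature library between 2 and 8 members were called lower, 5 without Col-0 mother replicate 2, 5 without Tsu-1 mother replicate 1 and 2 without Tsu-1 mother replicate 2. LEC1 and LEC2 were at most 0.80 CPM in any of the 4 libraries. DOG1, known for seed dormancy, stood at 411.1 and 317.8 CPM against 186.2 and 237.0 CPM and was not called. Neither was SOM, at 1875 and 5053 against 1341 and 1465 CPM, nor AGL67, at 464.9 and 472.8 against 171.8 and 164.6 CPM. BZIP53 stood at 227.9 and 252.9 against 440.2 and 361.5 CPM, and BZO2H1 at 80.6 and 41.3 against 46.64 and 38.97 CPM. Under other scalings between 4 and 9 regulators were called lower, the fewest with library totals.

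Of 22 genes of plastid fatty acid synthesis 17 were called lower with a Tsu-1 mother and none higher, with a median of -1.93. KASI, which extends the growing acyl chain, stood at 113.9 and 198.3 CPM with a Col-0 mother and 10.01 and 13.47 CPM with a Tsu-1 mother. Its difference of -3.73 ± 0.45 had an edgeR adjusted p of 6.57e-06, and the call held without any 1 library. The plastid pyruvate kinase subunits PKP-BETA1 and PKP-ALPHA fell from 172.7 and 191.1 CPM to 56.7 and 58.6 CPM and from 167.1 and 144.5 CPM to 45.2 and 48.2 CPM. Their edgeR adjusted p were 0.00329 and 0.00557, and without Tsu-1 mother replicate 1 (0.0506 and 0.0703) or replicate 2 (0.0507 and 0.0640) they missed the threshold. The most abundant members were not called: SSI2, a stearoyl desaturase, stood at 461.5 and 536.1 against 832.4 and 671.1 CPM, and the plastid sugar phosphate carrier GPT1 at 256.1 and 264.3 against 185.8 and 191.1 CPM. Between 11 and 17 members were called lower with 1 library left out, 11 without Tsu-1 mother replicate 1, and between 11 and 17 under other scalings.

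In the oil list of desaturation, elongation and assembly, 5 of 10 members were called lower and none higher. FAD3, which makes linolenic acid, stood at 992.7 and 727.2 CPM with a Col-0 mother and 33.6 and 37.6 CPM with a Tsu-1 mother. Its difference of -4.59 ± 0.50 had an edgeR adjusted p of 2.25e-06 and held without any 1 library. FAD2, the desaturase acting before it, fell from 3662 and 2010 CPM to 697.5 and 634.0 CPM (edgeR adjusted p 0.00430), a call lost without Tsu-1 mother replicate 1 (0.0502) or replicate 2 (0.0706). SUS3, a sucrose synthase, and TAG1, the acyltransferase of triacylglycerol assembly, were not called, at 1135 and 1312 against 2437 and 2174 CPM and at 270.4 and 188.5 against 365.7 and 358.4 CPM. With library totals 5 members were called lower and 3 higher, and without Col-0 mother replicate 2 only 3 were called lower.

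Folding genes of the endoplasmic reticulum, where storage proteins enter the secretory path, had 6 of 18 members called lower and none higher. PDIL1-1, a protein disulfide isomerase, fell from 207.0 and 144.3 CPM to 11.0 and 14.3 CPM (-3.79 ± 0.49, edgeR adjusted p 1.9e-05), a call that held without any 1 library. With library totals the list had 3 members called in each direction. Of 9 genes for storage protein processing and vacuolar aquaporins, 2 were called lower, among them the seed aquaporin BETA-TIP at 5638 and 4609 against 1241 and 1377 CPM. That edgeR call (adjusted p 0.0274) was lost without Col-0 mother replicate 1 (0.0834), Tsu-1 mother replicate 1 (0.170) or Tsu-1 mother replicate 2 (0.147), and with library totals the list had 2 higher and 0 lower.

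Nuclear genes of the photosystems, antenna and Rubisco made up the list with the lowest median, -4.31, with 35 of 46 members called lower with a Tsu-1 mother and none higher. The mean log2 CPM of its members was 0.58 and 4.75 in the 2 libraries with a Col-0 mother and -0.42 and -0.10 with a Tsu-1 mother, so Col-0 mother replicate 2 stood far above the other 3. RBCS1A, a small subunit of Rubisco, stood at 34.0 and 397.7 CPM against 2.00 and 2.69 CPM. CAB1, an antenna protein, stood at 3.81 and 178.9 CPM against 0.60 and 0.63 CPM. Without Col-0 mother replicate 2, 5 of the 46 members were called lower and the median was -0.85. Without Tsu-1 mother replicate 1 or 2, 21 and 23 were called. In the authors' deposited table, which pools the libraries of a cross, 16 members had at least 20 variant reads with a Col-0 mother, and 13 of them were maternal at the authors' adjusted p-value under 0.05, against 1.81% of 6119 genes tested. Their median maternal share was 96.95%, in the authors' deposited table. CAB1 stood at 95.3% over 110 variant reads (p-value 0.0153), PSAF at 98.0% over 42 (p-value 0.000314) and MEE26, a hydroxyproline-rich glycoprotein gene outside the list, at 97.1% over 89 (p-value 0.0177) in the authors' deposited table. With a Tsu-1 mother, 4 list members had at least 20 variant reads in the authors' deposited table. None of the 4 was maternal or paternal there at an adjusted p-value under 0.05, with maternal shares from 30.15% to 51.93%. CAB1, PSAF and MEE26 had at most 2 variant reads there, so maternal origin and the Col-0 allele cannot be told apart for them. Nor can the table assign the reads to replicate 2.

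RBCS1A and CAB1 differed by -6.50 ± 0.86 and -7.18 ± 1.15 with edgeR adjusted p of 2.36e-05 and 0.000164, and with 0.000375 and 0.0402 without that library. The cytochrome complex subunit PETC, at 218.6 and 166.4 CPM against 58.5 and 58.9 CPM, was even between the Col-0 mother libraries. Its edgeR adjusted p of 0.0198 rose to 0.0918 without Col-0 mother replicate 1, 0.129 without Tsu-1 mother replicate 1 and 0.135 without Tsu-1 mother replicate 2. LHCB4.1, the most abundant member, was not called, at 159.0 and 111.5 CPM against 182.2 and 211.2 CPM. Members of the antenna and Rubisco families are near-identical in part, and the split of reads between them is uncertain. With library totals 30 members were called lower and 1 higher.

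**Figure D5:**
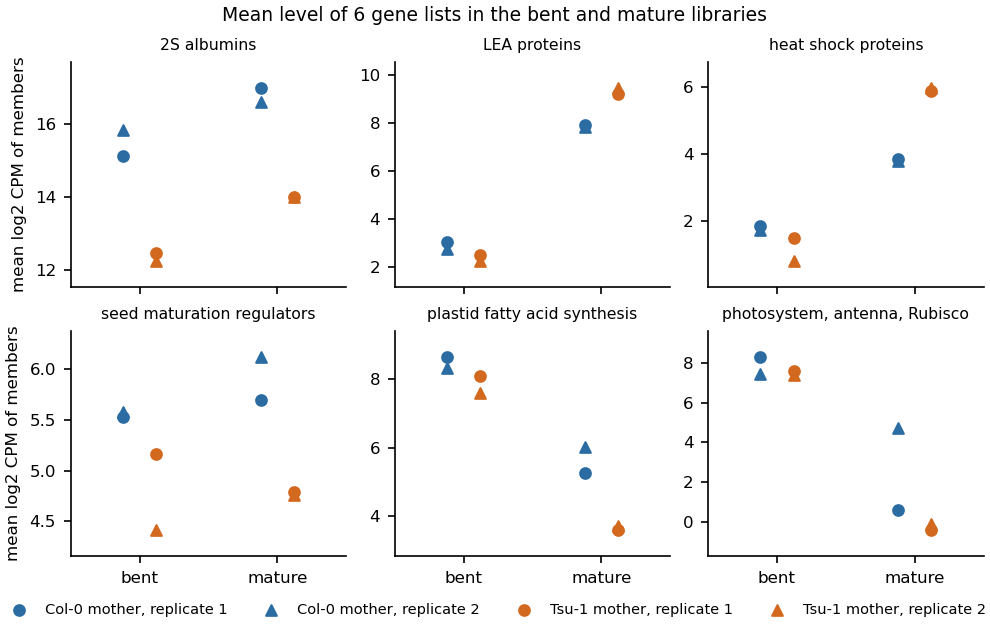
Mean log2 CPM of the members of 6 gene lists in the 4 bent and 4 mature libraries (blue, Col-0 mother; orange, Tsu-1 mother; circles, replicate 1; triangles, replicate 2). In the photosystem list Col-0 mother replicate 2 at mature lies at 4.75 while the other mature libraries lie between -0.42 and 0.58.

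Several of the largest differences among lower genes were in genes not yet described. AT1G62500, annotated as a lipid transfer or 2S albumin family protein, fell from 430.7 and 1318 CPM with a Col-0 mother to 4.004 and 3.01 CPM with a Tsu-1 mother (-7.96 ± 1.25, edgeR adjusted p 0.000147). The expansin EXPA15, which loosens cell walls and belongs to the list of expansins and xyloglucan enzymes, fell from 494.1 and 548.1 CPM to 5.61 and 6.65 CPM (-6.41 ± 0.48, edgeR adjusted p 7.41e-09). Libraries of the same cross were close for EXPA15 and the groups 84.7-fold apart in the fitted difference. PDF1, a marker of the protoderm, fell from 2994 and 2132 CPM to 366.7 and 298.3 CPM, and the lipid transfer protein LTP2 fell from 4274 and 3723 CPM to 493.5 and 569.4 CPM. AFO, a YABBY factor of abaxial cotyledon cells, fell from 118.9 and 91.0 CPM to 11.6 and 9.51 CPM. These 5 calls held without any 1 library.

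The EXPA15 window is given as that of the lower gene with the smallest adjusted p among those named.
EXPA15 (chr2:918672-918921, minus strand): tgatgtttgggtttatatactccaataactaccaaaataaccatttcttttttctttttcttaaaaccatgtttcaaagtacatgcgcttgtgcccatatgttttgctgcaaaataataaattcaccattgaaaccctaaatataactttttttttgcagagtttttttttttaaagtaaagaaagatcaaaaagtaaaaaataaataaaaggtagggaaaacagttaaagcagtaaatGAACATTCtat
It holds 1 heat shock element core and neither RY, a G-box nor ACGTG.

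AT5G39890 and AT5G15120, both annotated as 2-aminoethanethiol dioxygenases, fell from 138.0 and 98.5 CPM to 8.61 and 13.8 CPM and from 201.2 and 98.8 CPM to 18.22 and 23.45 CPM (edgeR adjusted p 8.68e-06 and 8.54e-05). PEI1, a zinc finger protein, stood at 196.5 and 88.6 CPM against 18.02 and 19.80 CPM, AT2G34700, an extensin family protein, at 294.4 and 857.9 against 59.5 and 49.0 CPM, and the uncharacterized AT1G15830 at 129.7 and 96.4 against 8.41 and 11.4 CPM. The calls of these 5 genes held without any 1 library. The carboxypeptidase-like scpl17, at 119.3 and 166.1 against 18.8 and 23.0 CPM (edgeR adjusted p 0.0216), was called without Col-0 mother replicate 1 alone, and missed without the other 3 (0.0726 to 0.160). Among expansins and xyloglucan enzymes, 9 of 51 tested were called lower and 3 higher, and with library totals 5 and 10. Of 24 tubulins and actins 7 were called lower, TUB2 among them at 125.1 and 105.1 against 15.6 and 18.7 CPM, and 3 with library totals or without either Tsu-1 mother library.

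Higher genes outside the lists were of mixed annotation. TGA4, a bZIP factor, stood at 11.32 and 11.98 CPM with a Col-0 mother and 138.5 and 122.1 CPM with a Tsu-1 mother, and AT3G46220, annotated as a UFM1 ligase, at 53.4 and 96.9 against 766.1 and 907.8 CPM. Their edgeR adjusted p were 4.69e-05 and 1.89e-06. The mitochondrial RNA helicase PMH1 stood at 16.8 and 9.32 against 104.7 and 172.8 CPM, the F-box gene AT2G27310 at 19.6 and 41.3 against 326.5 and 450.9 CPM, and the glycine-rich genes AT1G27090 and AT5G35660 at 60.3 and 44.2 against 539.3 and 731.3 CPM and at 97.5 and 110.5 against 671.2 and 1778 CPM. The calls of these 6 genes held without any 1 library, but DESeq2 did not call AT5G35660 (adjusted p 0.238). Those of AT4G04135, a non-coding RNA (edgeR adjusted p 0.00545), and AT3G63540 (0.0129) were lost without Col-0 mother replicate 2 (0.0698 and 0.0968), and the latter also without Col-0 mother replicate 1 (0.0638) or Tsu-1 mother replicate 2 (0.120).

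The 18S ribosomal RNA copies AT3G41768 and AT2G01010 were also higher, at 144.2 and 75.9 against 1507 and 2261 CPM and at 120.8 and 62.6 against 955.3 and 1487 CPM. They are near-identical, so their split is uncertain. Raw read shares of organelle RNA differed too, and the part of ribosomal and organelle reads in the other differences was not tested. Reads of chloroplast genes made up 0.067% and 0.184% with a Col-0 mother and 0.3683% and 0.3298% with a Tsu-1 mother, and those of mitochondrial genes 0.0138% and 0.0117% against 0.0644% and 0.0774%. After TMM scaling the chloroplast list overlapped between the crosses, with a mean log2 CPM of 3.26 and 3.70 against 3.58 and 3.52 and a median difference of -0.13. Of 128 chloroplast genes tested 20 were called higher and 13 lower, and of 100 mitochondrial genes 22 higher and 2 lower. Without 1 library between 5 and 14 chloroplast and between 6 and 14 mitochondrial genes were called higher, the fewest of both without Tsu-1 mother replicate 2. The mother's accession is also the source of the organelles here, and organelle genotype and cross direction cannot be told apart.

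Markers of other seed tissues took small shares of reads, with 1 abundant exception. Of 25 seed coat genes 1 was called higher and 1 lower, and 19 had a difference above 0. They took 0.00918% and 0.00975% of reads with a Col-0 mother and 0.0205% and 0.0200% with a Tsu-1 mother. Under other scalings up to 8 were called higher and at most 1 lower. Of 15 endosperm genes tested 1 was called lower, the extensin-like AT2G27380 at 659.9 and 259.5 CPM against 89.1 and 97.4 CPM (edgeR adjusted p 0.00263), a call missed without Col-0 mother replicate 1 (0.0536). AT2G27380 was lower with a Tsu-1 mother, as 2S albumin reads were, which every gene called lower shares. After TMM scaling both AT2G27380 and the mean of the 2S albumins were higher in Col-0 mother replicate 1 than in replicate 2. Mean log2 CPM of the 2S albumins was 17 and 16.61 there, although SESA5 went the other way. Their unscaled read shares were 36.7% and 42.2%. A link between AT2G27380 and the albumins was not tested. The endosperm regulators MEA, FIS2 and FWA were at most 12.8 CPM in any mature library. The list took 0.0195% and 0.0107% of reads against 0.00632% and 0.00600%, and its part in the other differences was not tested.

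Housekeeping functions had calls in both directions. Of 300 cytosolic ribosomal protein genes 11 were called higher (3.67%) and 39 lower (13%), but with library totals 71 and 7, and 1 and 11 or 2 and 10 without Tsu-1 mother replicate 1 or 2. Of 38 genes with proteasome in their annotation, a list that also holds COP9 signalosome subunits such as COP8, 1 was called higher and 3 lower (7 and 0 with library totals). Of 47 genes annotated as histone family, which include the regulator LEC1, 1 and 4 were called (10 and 0 with library totals). The one called higher was AT1G08170, at 159.6 and 144.8 against 705.5 and 727.6 CPM (edgeR adjusted p 0.00125). Of 14 clock genes 2 were called lower (3 higher and 1 lower with library totals), of 12 antioxidant genes 3 were called lower (2 higher and 0 lower with library totals), and of 19 lipid mobilisation genes 2 were called higher (11 with library totals, 0 without Col-0 mother replicate 2 or either Tsu-1 mother library).

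In the lists of hormone metabolism and the cell cycle, members were called in both directions. Of 13 genes of abscisic acid synthesis and breakdown 1 was called higher and 2 lower, among them CYP707A2, which breaks the hormone down, at 118.1 and 60.2 against 22.2 and 22.3 CPM (edgeR adjusted p 0.00538). It missed the threshold without Col-0 mother replicate 1 (0.0896), Tsu-1 mother replicate 1 (0.0638) or Tsu-1 mother replicate 2 (0.0702). Of 14 gibberellin genes 2 were called higher and 3 lower, the latter including the synthesis genes GA20OX3 (18.8 and 48.2 against 3.20 and 2.38 CPM) and GA2 (21.9 and 23.4 against 3.20 and 5.39 CPM), with edgeR adjusted p of 0.000607 and 8.29e-05 that held without any 1 library. The other gibberellin genes called were GA2OX2 and GA2OX6, higher by 1.54 and 3.63 (edgeR adjusted p 0.00950 and 0.00859), and GA20OX2 at -3.52 (0.000893). With library totals the abscisic acid and gibberellin lists had 4 higher and 0 lower, and 4 higher and 3 lower. Of 25 cell cycle genes 2 were called higher and 3 lower, and 0 without Col-0 mother replicate 2 or Tsu-1 mother replicate 2.

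The stage before mature, bent, offers the same contrast in other libraries: with a Tsu-1 mother 1449 genes were called higher there (5.78%) and 2506 lower (10%), 15.8% in all. Bent Tsu-1 mother replicate 2 had only 0.69 M reads. At bent the 2S albumins had a median difference of -3.37 and photosystem genes of -0.40, and heat shock and LEA genes of -0.03 and -0.13. Members of the last lists went both ways at bent, with 3 of 16 heat shock genes called higher and 3 lower, and 1 of 31 LEA genes called higher and 3 lower. The test of the difference itself, the mature minus the bent cross difference, called 1236 genes (4.93%), 654 higher (2.61%) and 582 lower (2.32%). Without bent Tsu-1 mother replicate 1 that count was 297, without mature Tsu-1 mother replicate 1 502, without mature Tsu-1 mother replicate 2 456 and without mature Col-0 mother replicate 2 715.

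By list, 24 of 46 photosystem genes and 9 of 22 fatty acid synthesis genes had a lower and none a higher cross difference at mature than at bent in that test. Without mature Col-0 mother replicate 2 these counts were 1 and 5, without Tsu-1 mother replicate 1 they were 7 and 4, and without Tsu-1 mother replicate 2 they were 4 and 5. Of 16 heat shock genes 5 had a higher one, among them HSP17.4, at 25.79 and 20.07 against 4.13 and 7.45 CPM at bent. Of 31 LEA genes 3 had a higher one, and 2 without either mature Tsu-1 mother library. No 2S albumin, cruciferin or oil body gene was called. Of 128 chloroplast genes 35 had a higher and 5 a lower cross difference at mature than at bent. Of 100 mitochondrial genes 11 had a higher one and 0 a lower one. At bent itself 62 of the chloroplast genes were called lower with a Tsu-1 mother and 7 higher. EXPA15 stood at 597.5 and 588.1 against 645.8 and 445.6 CPM at bent, where the crosses overlapped, and its cross difference changed by -6.29 ± 0.58 (edgeR adjusted p 8.65e-07).

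Parental alleles at mature were available only as the authors' deposited table, by cross and not by library, with a maternal fraction for each gene. For 441 genes called higher with at least 20 variant reads in each cross, the authors' deposited table gives a median maternal share of 51.3% with a Col-0 mother and 50.2% with a Tsu-1 mother. For 427 genes called lower the medians were 52.6% and 49.3%, and for all 4867 tested genes with such reads 52.0% and 49.8%, in the authors' deposited table. In the authors' deposited table none of these genes was maternal in both crosses or paternal in both at an adjusted p-value under 0.05. Genes with reads in 1 cross only are left out of those medians. Counting each cross alone, 36 of 815 genes called lower (4.42%) were maternal with a Col-0 mother in the authors' deposited table, against 4 of 472 called higher and 111 of 6119 tested, and 12 of the 36 were of the photosystem, antenna and Rubisco list. SESA1 had maternal shares of 54.95% and 49.93% there, HSP101 of 51.2% and 57.7%, and ABI5 of 51.0% and 49.2%, in the authors' deposited table. SESA3 had 71.56% and 32.11%, SESA2 28.47% and 69.08%, SESA4 50.32% and 52.62%, and SESA5 42.43% and 47.34%, in the authors' deposited table. None of the 5 albumins was maternal or paternal in either cross at an adjusted p-value under 0.05 in the authors' deposited table. CAB1, PSAF and MEE26, all called lower, had 95.3%, 98.0% and 97.1% with a Col-0 mother in the authors' deposited table. With a Tsu-1 mother they had at most 2 variant reads there.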

How the data were processed

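The authors deposited a table of estimated counts (total reads, without normalization) that covers 29 libraries and 33341 genes. In the mature libraries 14.7% to 16.5% of values had decimals, and every value was rounded to a whole number for the tests. The submitters' processing notes name STAR 2.7.0d, featureCounts 1.6.0, edgeR and TAIR10, without their settings. The authors also deposited maternal fractions with p-values, given by stage and cross and not by library, which allow a description only. A further 78 columns of the deposited tables were not used.

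Counts of all 29 libraries in 15 groups were fitted with edgeR 4.0.16 (R 4.3.3) after filterByExpr and TMM scaling, with 14 residual degrees of freedom, quasi-likelihood tests and Benjamini-Hochberg adjustment over 25062 genes. DESeq2 1.42.0 was an alternative. Log2 CPM used a prior count of 1. Tables, tests and figures used Python 3.11.15, pandas 2.3.3, numpy 2.4.6, scipy 1.17.1 and matplotlib 3.10.9. The scripts were tested on simulated data. RefSeq names of TAIR10.1 matched 33056 of 33341 identifiers.

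Genes were named by rule: the 15 largest called differences in each direction whose mean log2 CPM over the 4 mature libraries reached 5 and whose groups did not overlap, the 10 genes with the most reads, up to 4 of the most abundant members of each list, the 5 largest called changes of the cross difference between bent and mature, and every member of the storage, oil body, raffinose and regulator lists. Other genes named from the lists, such as AT1G08170, TUB2 and M17, were chosen after their values were seen where they fall outside this rule. Members and lists, 21 written by hand and 7 by name pattern, were chosen with earlier results of these data known. The heat shock element and the 3-read limit were added after the data had been seen. That limit covers counting error only.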

Additional observations from a re-analysis of the deposited data

Results flagged for a closer look

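The cross difference at mature differed from that at bent for 1236 genes by edgeR's test of the difference itself, and these were singled out for that reason. Among named genes, EXPA15 changed by -6.29 on the log2 scale. MEE26 changed by -7.63, with 2577 and 1905 CPM (Col-0 mother) and 2807 and 2423 CPM (Tsu-1 mother) at bent against 5.85 and 176.2 and 0.40 and 0.63 CPM at mature. PSAF changed by -7.24, with 893.0 and 615.6 and 1357 and 1050 CPM at bent, and its mature call was lost without Col-0 mother replicate 2 (edgeR adjusted p 0.400). GEA6 changed by 9.47 and AT1G68250 by 7.66. Both had no reads in the bent Tsu-1 mother libraries and at most 3.15 and 4.12 CPM with a Col-0 mother there, so their sizes depend on the prior count and are no bounds.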

How the results depend on the processing

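Depth limits genes of a few CPM, since 3 reads over the group stand for 0.258 CPM with a Col-0 mother and 0.265 CPM with a Tsu-1 mother. Library totals without scaling factors moved the calls from 3747 to 6793 (6115 higher, 678 lower) and the hand-written list members called higher from 33 to 92. Median-of-ratios or upper quartile factors, TMM factors set without the top genes, leaving out the 10, 50 or 100 top genes, no filter (4109), DESeq2 (4194), the 4 mature libraries alone (3959) and the 8 bent and mature libraries (3291) stayed within 1.5 times. Leaving out 1 mature library gave between 1183 and 2568 calls, 532 to 916 higher and 651 to 1738 lower, and between 15 and 27 list members higher and 48 to 85 lower. Leaving out a bent library left between 3864 and 3875 calls.

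The mature minus bent test gave 662 calls (299 higher, 363 lower) with 8 libraries, 1079 lower with DESeq2, and with 1 library left out between 297 and 1510 calls, 115 to 707 higher and 182 to 803 lower. Ranking each library's own top 10 genes gave shares of 60.5% and 25.01%. Among named genes 1582 values kept direction and call, 102 lost and 74 gained the call and 12 reversed. With library totals CRU2 stood at 0.49, OLEO4 at 0.78, AT1G03890 at 0.64, GPT1 at 0.34, AT4G26740 at 0.73 and DOG1 at 0.045. With upper quartile factors OLEO4 stood at 0.062 and AT4G26740 at 0.032. With 1 mature library left out CRU2 ranged from -0.99 to 0.56, OLEO4 from -0.37 to 0.29 and AT1G03890 from -0.91 to 0.86, each highest without Col-0 mother replicate 1, and HSFA9 from -0.038 without Tsu-1 mother replicate 2 to 0.32 without Tsu-1 mother replicate 1. The cause was not tested.

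Whether libraries of the same replicate number were handled together is not given in the sources used here. Across genes, deviations of same-numbered libraries correlated at -0.055 at mature and -0.089 at bent, which cannot settle it with so few libraries. With the replicate number as a block there were 3490 calls over all libraries, 4356 over the 4 mature libraries (51 list members higher), 3554 with blocks at bent and mature, and 1235 in the mature minus bent test.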
